A study of Drosophila melanogaster with 4 samples.

Results

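The genes described here are those of primary piRNA biogenesis in *Drosophila melanogaster*, the factors that turn long piRNA precursor transcripts into mature piRNAs bound to Piwi. The set was taken by name and holds 9 genes, *zuc*, *armi*, *vret*, *shu*, *papi*, *Hen1*, *fs(1)Yb*, *SoYb* and *BoYb*, of 17103 genes listed for the series. RNA came from gonads of stage 17 embryos aged 18 to 22 h at 25 °C, with 2 control samples of genotype *vas-GFP* and 2 mutant samples of genotype *Phf7[DN18]; vasGFP*, so that both groups carry a GFP transgene that marks germ cells. *Phf7*, the mutated gene, encodes a histone reader of the male germline, and the comparison asks which genes depend on it in embryonic gonads. The embryos of each sample were pooled and both sexes were mixed. Gonads were released by mechanical disruption and sorted as GFP-positive particles without enzymes, so each sample holds germ cells together with somatic gonad cells and any tissue that stayed attached.

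piRNAs are small RNAs that guide Piwi proteins to transposon transcripts in the gonad. In the primary pathway, precursor transcripts leave the nucleus and are gathered in cytoplasmic granules, which in the somatic cells of the fly ovary are the Yb bodies, where the helicase Armitage works with Yb and with the Tudor protein Vreteno. The transcripts are then cut at the surface of mitochondria by the endonuclease Zucchini, loaded onto Piwi proteins with the help of the co-chaperone Shutdown, trimmed and finally methylated at their 3′ ends by Hen1. Part of the machinery serves both germ cells and soma, whereas Yb is known as a factor of the gonadal soma and BoYb as one of the germline.

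All 9 genes were detected, and 8 of them could be compared between genotypes. The deposited table gives a mean over the 4 libraries, from which the whole reads of each library were solved. Reads were then divided by the library's size factor, and such values are called normalized reads below. The solution was unique for 8 of the 9 genes, the exception being *armi*, whose mean allows 4 different sets of reads. The 2 libraries of each genotype carry no replicate number and are called control a, control b, mutant a and mutant b. Reads in the 11542 solved genes ranged from 1874734 to 2598085 per library, and these genes hold 21.2% of all normalized counts, since the most abundant genes could not be solved. *Phf7* itself had 749 reads in control a, 495 in control b, 9 in mutant a and 44 in mutant b, which is the order the labels call for.

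Summed markers of other tissues differed up to 21.2-fold between libraries, and their high and low libraries were not split by genotype. The summed normalized reads of 12 muscle markers were 1007 in control a, 3339 in control b, 4529 in mutant a and 1168 in mutant b, with *Mlc2* (myosin light chain) and *Act57B* (muscle actin) as the markers of highest level. Those of 10 neuronal markers, led by *nrv3* and *elav*, ranged from 977.5 in control a to 5359 in mutant a, and those of 5 midgut markers, led by *Jon25Bi* and *betaTry*, from 127 in control a to 2696 in mutant a. Control b and mutant a were thus the libraries rich in other tissues. The 7 germ cell markers with solved reads, led by *ovo* and *nos*, summed to 2550 and 2542 in controls and to 3365 and 2847 in mutants, 1.22 times as much. Of these 7, 4 were higher in both mutants than in both controls, 1 (*zpg*) was lower and 2, *ovo* among them, overlapped. Of 10 somatic gonad markers listed, 6 had solved reads, led by *Fas3* and *esg*. These 6 summed to 2743 and 2568 in controls and to 1996 and 1954 in mutants, 0.744 times as much. *Fas3* and *esg* made up most of these sums. Of the 5 solved markers with a mean count of 10 or more, these 2 were lower in both mutants and 3 overlapped. *Sox100B*, below that count, was higher in both mutants. Markers of both parts of the gonad were therefore present in every library, while *tj*, *zfh1*, *bnb*, *fax* and *vas* are not among the solved genes. Each of these had a higher mean count than any solved marker of its list.

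*armi* and *shu* were the most abundant members and *BoYb* the least. Libraries of this kind sample transcripts from their 3′ ends, so counts were not divided by gene length and the order of levels rests on that. The authors' mean normalized count was 1764 for *armi*, which stood above 94.0% of the 12679 detected genes, and 1412 for *shu*, above 92.0%. *papi* followed with 483.2. *vret* (202.8), *zuc* (190.1), *fs(1)Yb* (184.1) and *SoYb* (178.7) lay close together, each within 1.07 times of the next, above 60.5% to 62.8% of detected genes. *Hen1* had a mean of 75.8 and *BoYb* one of 44.9, both below the median detected gene, which had 84.8. The members spanned 39.3-fold and together made up 0.0424% of all normalized counts.

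**Figure D1:**
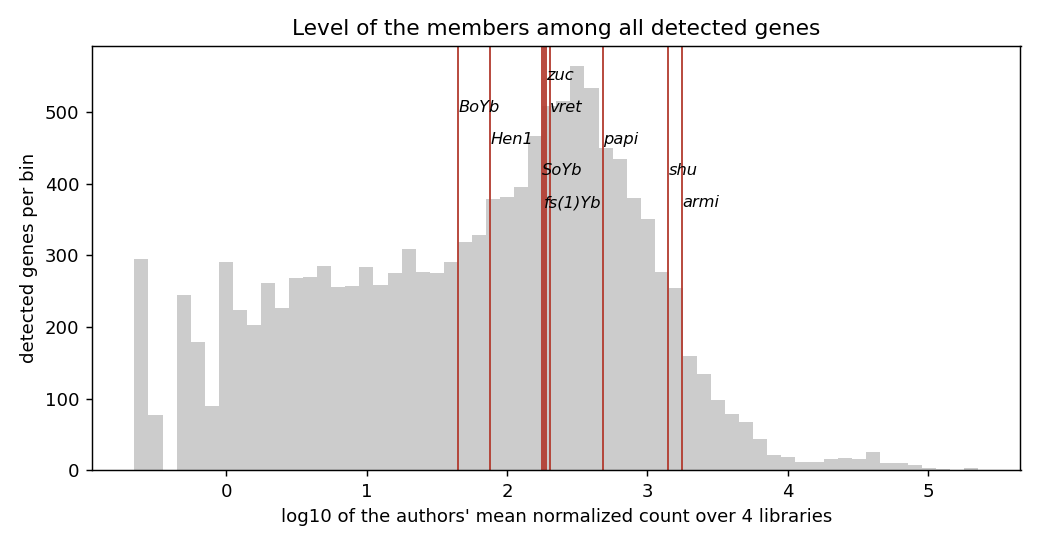
Histogram of the authors' mean normalized count over the 4 libraries (log10 on the x axis) for the 12679 detected genes, with the number of genes per bin on the y axis and a vertical line for each of the 9 members. *armi* (1764) and *shu* (1412) sit in the upper tail, 4 members cluster between 178.7 and 202.8, and *BoYb* (44.9) is lowest.

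The order held within libraries where the gaps were wide. *shu* exceeded *papi* in 4 of 4 libraries, by 2.40 to 3.59 times, and *papi* exceeded *vret* in 4 of 4, by 1.94 to 2.95 times. *SoYb* exceeded *Hen1* in 4 of 4, by 1.64 to 2.76 times. *vret*, *zuc*, *fs(1)Yb* and *SoYb* had overlapping ranges, and *vret* was above *zuc* in only 2 of 4 libraries, so their order is not larger than the spread. *Hen1* was above *BoYb* in every library, by as little as 1.12 times in control b, and the ranges of these neighbours overlapped.

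**Figure D2:**
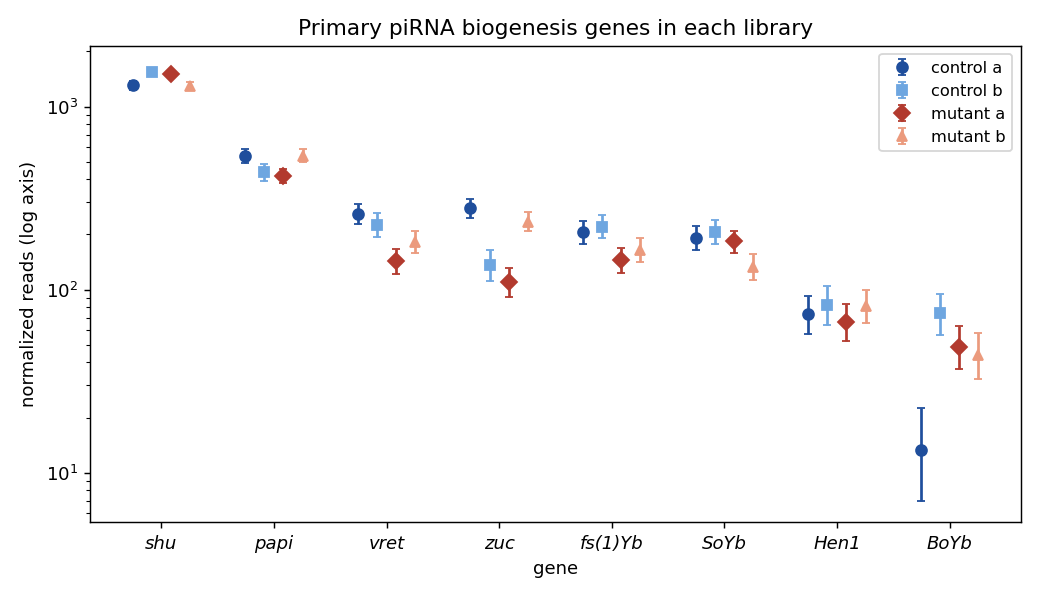
Normalized reads (log axis) of the 8 members with solved reads in each of the 4 libraries; bars are exact Poisson 95% intervals, which cover counting error only. Both mutant libraries lie below both controls for *vret*, *fs(1)Yb* and *SoYb*, whereas *zuc* is high in control a and mutant b and *BoYb* is low in control a (13.2).

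None of the 8 members tested passed the threshold for a difference between genotypes. The test was limma on log2(normalized reads + 1), with 2 libraries per genotype and Benjamini-Hochberg adjustment over 7987 genes, those with solved reads whose mean count was 10 or more. All 8 members met that filter. At an adjusted p under 0.05 it called 0 of these 7987 genes (0%), with a lowest adjusted p of 0.0733, and limma-voom on the reads also called 0. *Phf7* itself, with a log2 difference of -5.16, had an adjusted p of 0.524. An unadjusted p under 0.05 was reached by 475 genes (5.95%; 409 with limma-voom) and by 0 of the 8 members with both tools, whose lowest adjusted p with limma was 0.926. The test thus had little power, and intervals are given for each gene. The log2 difference of mutant minus control was negative for 7 of the 8 members and positive for 1, with a median of -0.18 against 0.02 over all genes tested. In 3 of the 8 both mutant libraries lay below both controls, which was so for 17.3% of all genes tested. No member had both mutants above both controls, against 15.6% of all genes. In bulk gonads, fewer cells of a type and less RNA per cell cannot be told apart in any of these values.

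**Figure D3:**
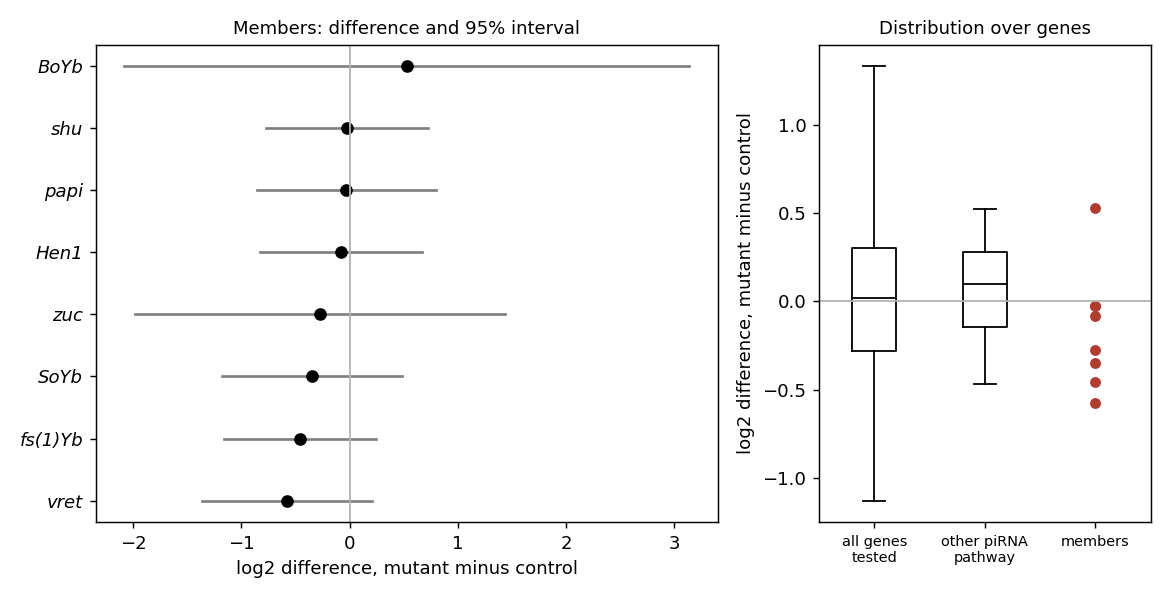
Left, log2 difference of mutant minus control for each of the 8 members with its 95% interval from limma; right, the 8 members as points beside boxes for all 7987 genes tested and 30 other piRNA pathway genes, where boxes span the quartiles with the median as a line and whiskers reach the 5th and 95th percentiles. Every interval of a member includes 0, and the widest are those of *BoYb* and *zuc*.

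Among the Yb body factors, the genes furthest below controls in mutants were *vret* and *fs(1)Yb*. *vret* (FBgn0263143, 3R:22742954-22745581 in dm6, minus strand) encodes a Tudor-domain protein needed for Piwi to accumulate in germline and soma. It had 259.1 normalized reads in control a, 226.0 in control b, 143.5 in mutant a and 182.6 in mutant b. Both mutants lay below both controls. The group means were 242.5 ± 23.4 and 163.1 ± 27.7 (SD, n = 2), a ratio of 0.672. The log2 difference was -0.58 (SE 0.27, 95% interval -1.36 to 0.21; limma, adjusted p = 0.926), so the fold could lie anywhere from 0.389 to 1.16. The last 500 exonic bases of *vret* share 128 bases with *CG6985* on the opposite strand, whose normalized reads were 79.3 and 24.3 in controls and 23.9 and 57.9 in mutants. The strand setting of the counting is not given in the sources used here, so part of the reads of *vret* may be uncertain, and how large a part was not measured.

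*fs(1)Yb* (FBgn0000928, X:2720468-2724158, plus strand) encodes Yb, the Tudor-domain helicase-like protein after which Yb bodies are named. Its normalized reads were 205.3 in control a, 221.1 in control b, 145.3 in mutant a and 164.8 in mutant b. The groups did not overlap, and libraries of 1 genotype differed little. Means were 213.2 ± 11.2 in controls and 155.0 ± 13.8 in mutants (SD, n = 2), a ratio of 0.727, and the log2 difference was -0.46 (SE 0.24, 95% interval -1.16 to 0.24; limma, adjusted p = 0.949). No other gene shares its exons. The summed somatic gonad markers, mostly *Fas3* and *esg*, were lower in the same libraries, while 3 of the 5 tested overlapped. Per 1000 summed reads of those markers, *fs(1)Yb* had 74.8 and 86.1 reads in controls and 72.8 and 84.3 in mutants, and the groups overlapped. By that measure 0 of the 8 members were lower in both mutants, against 5.78% of all genes tested. Per 1000 summed reads of germ cell markers, *fs(1)Yb* had 80.5 and 87.0 in controls and 43.2 and 57.9 in mutants. The part of the marker levels in its difference was not tested.

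*SoYb* (FBgn0051755, 2L:9996706-10002736, minus strand), a relative of Yb used in both germline and soma, had 192.1 normalized reads in control a, 206.5 in control b, 183.4 in mutant a and 132.7 in mutant b. Mutant b was the low library, and mutant a came close to the controls. The ratio of the means was 0.793 and the log2 difference -0.35 (SE 0.29, 95% interval -1.18 to 0.48; limma, adjusted p = 0.986). *SoYb* shares 247 exonic bases with *CG31875* on the same strand, none of them in its last 500.

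*BoYb* (FBgn0037205, 3L:22901912-22905470, plus strand), the relative of Yb known from the germline, was the only member with a positive difference, and that rested on a single library. It had 13 reads in control a, 61 in control b, 55 in mutant a and 49 in mutant b. Normalized, these were 13.2 (exact Poisson 95% interval 7.03 to 22.6), 74.1 (56.7 to 95.2), 48.7 (36.7 to 63.4) and 43.7 (32.3 to 57.7). Control a was thus the lowest library and control b the highest, 5.61 times apart and well beyond counting error, while the mutants differed by 1.12 times. The log2 difference was 0.53 (SE 0.91, 95% interval -2.08 to 3.14; limma, adjusted p = 0.986). It was -0.67 without control a and 1.73 without control b. Control a also had the lowest summed reads of muscle, neuron and midgut markers. Mutant b was next lowest in each of these sums, and its *BoYb* was close to that of mutant a, the highest in them. With the mean level of these markers as a covariate, which leaves 1 residual degree of freedom, the log2 difference was 0.22 (limma, adjusted p = 0.907). Whether these tissues bear on the *BoYb* values was not tested.

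Summed over the Yb family, the normalized reads of *fs(1)Yb*, *SoYb* and *BoYb* were 410.6 in control a, 501.7 in control b, 377.4 in mutant a and 341.1 in mutant b. *fs(1)Yb* made up 50% and 44.1% of the family in controls and 38.5% and 48.3% in mutants. *SoYb* made up 46.8% and 41.2% in controls and 48.6% and 38.9% in mutants. *BoYb* made up 3.22% in control a and between 12.8% and 14.8% in the other libraries. The makeup of the family therefore overlapped between genotypes, with control a apart in *BoYb* only.

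*armi* (FBgn0041164, 3L:3461317-3466314, plus strand), the RNA helicase that passes precursors from Yb bodies to mitochondria, could not be compared with certainty. The most even of its 4 possible sets of reads was 2233 and 1385 in controls and 1645 and 1849 in mutants, with normalized reads 1.56 times apart between the highest and lowest library. Of 1533 solved genes with a mean count between 500 and 2000, 34.4% were at least as uneven. In the other 3 sets the highest and lowest libraries were 4.92 to 18.9 times apart, which 0.913% to 2.28% of those genes matched or exceeded. With the most even set the log2 difference was -0.33 (SE 0.29, 95% interval -1.16 to 0.49; limma, adjusted p = 0.986), with 2269 and 1683 normalized reads in controls and 1457 and 1647 in mutants, both mutants below both controls. Evenness does not settle the set, since 31% of 100 random means of this size also had a set whose libraries all lay within 2-fold of the mean. Which set is right was not settled. *armi* also shares 4145 of its 4162 exonic bases with *CG46463* on the same strand. *CG46463* is not listed by that name for the series, where the locus appears as *armi*. How reads of the locus were counted is otherwise uncertain.

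At the mitochondrial step, *zuc* varied within each genotype rather than between them. *zuc* (FBgn0261266, 2L:11988735-11989882, minus strand), the endonuclease that sets the 5′ ends of primary piRNAs, had 279.4 normalized reads in control a (exact Poisson 95% interval 247.4 to 314.5), 136.1 in control b (112.0 to 163.7), 109.8 in mutant a (91.4 to 131.0) and 235.2 in mutant b (207.7 to 265.4). Control a and mutant b were high and control b and mutant a low, 2.05 times apart in controls and 2.14 times in mutants, with no overlap of the counting intervals. The log2 difference was -0.28 (SE 0.60, 95% interval -1.99 to 1.43; limma, adjusted p = 0.986). Without control a it was 0.24 and without mutant a 0.27, so its direction rested on these libraries. The libraries with low *zuc* were those rich in muscle, neuron and midgut markers. With the mean level of these markers as a covariate, which leaves 1 residual degree of freedom, the log2 difference was -0.03 (limma, adjusted p = 0.967). Whether these tissues bear on the *zuc* values was not tested. The last 500 exonic bases of *zuc* share 67 bases with *CG34163* on the opposite strand, which had 878.0 and 715.6 normalized reads in controls and 696.2 and 828.6 in mutants, high in the same 2 libraries as *zuc*.

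*papi* (FBgn0031401, 2L:2220748-2225544, plus strand), a Tudor-domain protein on mitochondria that in silkworm takes part in trimming piRNA 3′ ends, varied little. Its normalized reads were 537.5 in control a, 437.4 in control b, 419.0 in mutant a and 539.0 in mutant b. Control a and mutant b were again the higher libraries, and the groups overlapped. The log2 difference was -0.03 (SE 0.29, 95% interval -0.86 to 0.80; limma, adjusted p = 0.994), which leaves room for a fold from 0.552 to 1.74.

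*shu* (FBgn0003401, 2R:23841461-23843286, minus strand), the co-chaperone that works with Hsp90 in loading Piwi proteins, was the steadiest member. It had 1304 normalized reads in control a, 1545 in control b, 1505 in mutant a and 1295 in mutant b, with 1.19 times between the highest and the lowest. The groups overlapped and the log2 difference was -0.02 (SE 0.26, 95% interval -0.77 to 0.72; limma, adjusted p = 0.994), a fold between 0.585 and 1.65. *shu* shares 44 of its last 500 exonic bases with *CG46398* on the opposite strand.

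*Hen1* (FBgn0033686, 2R:12145710-12152752, plus strand), the methyltransferase of the last step, had 73.2 normalized reads in control a, 82.6 in control b, 66.4 in mutant a and 81.1 in mutant b. These values overlapped between genotypes and lay within 1.24 times of each other. The log2 difference was -0.08 (SE 0.26, 95% interval -0.83 to 0.67; limma, adjusted p = 0.991), a fold between 0.561 and 1.59.

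Seen by library, the members followed no common pattern. Relative to its own mean over the 4 libraries on the log2 scale, *zuc* stood at 0.66 in control a and -0.68 in mutant a, *vret* at 0.39 and -0.46, and *SoYb* at 0.12 and 0.06. The median over the 8 members was 0.14 in control a, 0.16 in control b, -0.19 in mutant a and -0.01 in mutant b. For the midgut markers the same medians ran from -2.67 in control a to 2.08 in control b.

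**Figure D4:**
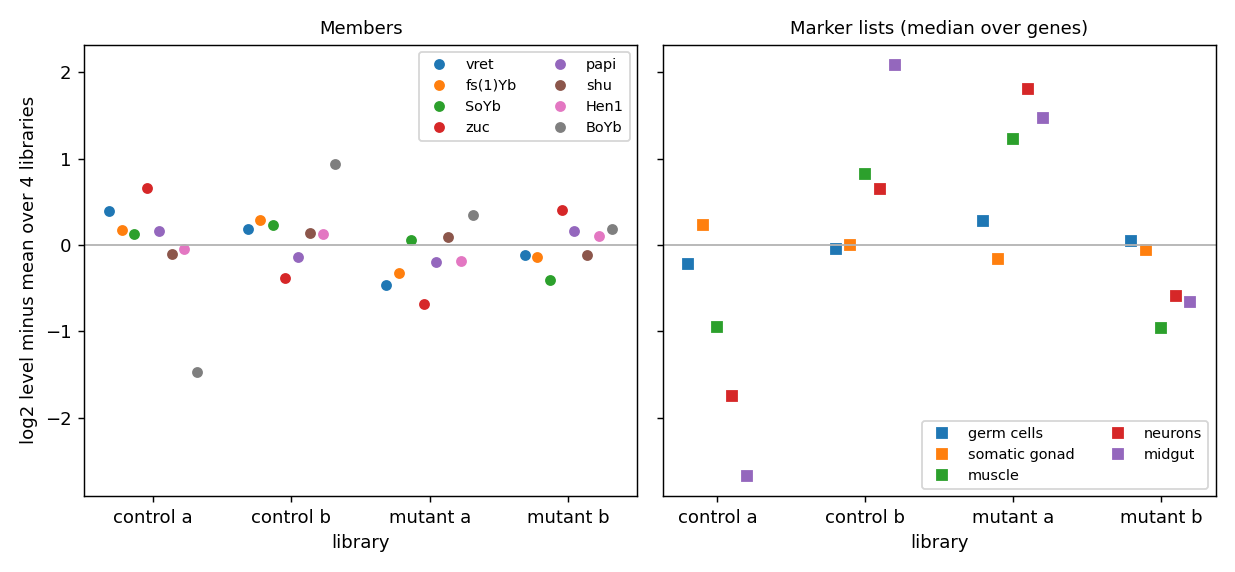
Log2 level minus the gene's mean over the 4 libraries, by library, for the 8 members (left) and as the median over the genes of each marker list (right). Muscle, neuron and midgut markers are low in control a and mutant b and high in control b and mutant a, by up to 2.67, whereas all members but *BoYb* stay within 0.68 of their mean.

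Set against the gonad's own cell types, the members shifted with the reference, as all genes did. Per 1000 summed reads of germ cell markers, 5 of the 8 members were lower in both mutants than in both controls, and none was higher. Over all genes tested, 33% were lower and 6.06% higher in this sense. *vret* then had 101.6 and 88.9 reads in controls and 42.6 and 64.1 in mutants. Per 1000 summed reads of somatic gonad markers, 0 of the 8 were lower and 3 were higher, *shu*, *papi* and *Hen1*, against 5.78% lower and 45.2% higher over all genes. *vret* then had 94.5 and 88.0 reads in controls and 71.9 and 93.5 in mutants. These ratios were added after the data were seen, and the part of the marker levels in the members' values was not tested.

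The other genes of the piRNA pathway were split in direction. Of 39 listed genes, which act in nuage, in nuclear silencing, in precursor export or beside the members, all were detected and 30 had solved reads and were tested. The untested genes include *piwi*, *vas* and *mael*, so the directions below do not cover these. None passed an adjusted p of 0.05, and 1, *Nxf3*, had an unadjusted p below it. Their median log2 difference was 0.10, with 13 negative and 17 positive. Both mutants lay below both controls for 3 genes and above them for 9, against the shares of 17.3% and 15.6% over all genes given above. *Nxf3*, an RNA export factor for piRNA precursors of the germline, had 129.1 and 168.9 normalized reads in controls and 371.1 and 251.2 in mutants, a log2 difference of 1.04 (SE 0.34; limma, adjusted p = 0.823). *vls*, a partner of the arginine methyltransferase Capsuléen, had 543.6 and 345.0 in controls and 624.5 and 799.2 in mutants (log2 difference 0.70; limma, adjusted p = 0.943). *Trax* had 548.7 and 413.1 in controls and 219.7 and 412.5 in mutants (log2 difference -0.66; limma, adjusted p = 0.976), and mutant b there lay within 1 normalized read of control b. Among the genes with solved reads, those with the highest mean counts were *tapas* and *tud*, which encode Tudor-domain proteins, and *csul*, which encodes the methyltransferase Capsuléen. Their log2 differences were -0.06, 0.11 and -0.09.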

How the data were processed

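Gonads were sorted from 2 control and 2 *Phf7* mutant samples. The authors made QuantSeq 3′ libraries, aligned them by HISAT2 on the dm6 build, counted genes with HTSeq and compared genotypes with DESeq2 (Cufflinks is also listed). Tool versions and the strand setting were not given in the sources used here. The deposited table gives 1 mean normalized count per gene, a signal averaged over 4 libraries. It also holds the authors' log2 fold change, standard error, test score, p-value and adjusted p. Of these only the sign of the deposited log2 ratio (control over mutant) at genes with a single read was used, to tell the genotype of each library.

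The mean is printed to 15 digits and is a sum of 4 whole read numbers, each multiplied by the value of 1 read in its library (0.254 and 0.304 in controls, 0.221 and 0.223 in mutants). All sets of whole numbers that give the mean were searched. All 11208 detected genes with a mean up to 1000 had exactly 1 solution, as did 334 of 805 between 1000 and 2000. Of 1500 decoy means, 10 (0.667%) had a solution, all among the 200 decoys above 500. At the size of *shu* random means had 1.48 solutions on average and at that of *armi* 2.52, so a solution alone says little there. For *shu* the search was complete and left a single set. 0 columns hold values of a single sample. Recovered reads are derived values, so the main test was run on their log2 values, and limma-voom on the reads was an alternative.

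Log2(normalized reads + 1) was tested with limma 3.58.1 (R 4.3.3), 2-sided, where the mean count was 10 or more. The test was checked on simulated counts drawn independently for each gene. They held no shared shifts between libraries such as those of the tissue markers. Replicates are biological according to the study. Gene positions are from Ensembl release BDGP6.54, whose coordinates are those of dm6. Named are all members, *Phf7*, the other pathway genes past the threshold or, as none was, the 3 of highest mean and the 3 of largest difference, and the 2 of highest mean in each marker list. Overlapping genes, *vas*, *tj*, *zfh1*, *bnb*, *fax*, *zpg*, *Sox100B*, *piwi* and *mael* were named besides. The members, gene lists and alternatives were chosen with earlier results of these data known. Alternatives changed the pseudocount, filter, test, scaling, covariate and libraries. Sequences were not used here.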

Additional observations from a re-analysis of the deposited data

How the results depend on the processing

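No member passed the threshold under any of 15 alternatives. Of 118 values, 108 kept their direction and 10 turned it. Changed limits on the mean count, limma with a variance trend and the addition of *armi* leave a gene's log2 difference as it is. Agreement in those settings was therefore fixed in advance. The values that turned came from leave-one-out fits, apart from *papi* with the tissue covariate. *vret*, *fs(1)Yb* and *SoYb* stayed negative in 15 of 15, from -0.97 to -0.40, -0.85 to -0.37 and -0.75 to -0.12. Their lowest limma adjusted p values were 0.436, 0.485 and 0.522. As both mutants lay below both controls for these 3 genes, leaving out 1 library could not turn their direction. Leaving out each library in turn gave a log2 difference of -0.67 to 1.73 for *BoYb*, -0.22 to 0.0597 for *Hen1* (0.0045 without control b), -0.21 to 0.15 for *papi* (0.12 without control a), -0.15 to 0.10 for *shu* (0.08 without mutant b) and -0.82 to 0.27 for *zuc* (0.24 without control a). *papi* was 0.0491 with tissue markers as a covariate. A minimum mean count of 50 gave 2 called genes among all 5992 tested, against 0 of 7987, and none was a member. Scaling by germ cell markers moved the members' median to -0.57, with that of all genes at -0.38, and put 6 members lower with no overlap, as it did 43.4% of all genes. The count was 5 per summed germ cell markers (33% of all genes) and 0 per summed somatic gonad markers (5.78%). With *armi* added in its most even set it was 4 of 9, against 17.4% of all genes. The members' median was -0.07 with the tissue covariate and -0.28 with a minimum mean of 50, with genes up to a mean of 1000 only, or with *armi* added. With a library left out, the members' median ran from -0.285 to -0.0365 (the latter without mutant a) and the count from 4 to 6. It was 6 without control a (31.7% of all genes) and without mutant b (34.9%). The same count was 4 without control b (35.7% of all genes) and without mutant a (30.5%).

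No paired analysis was possible because the recovered libraries carry no replicate number. The scalings by summed markers, the use of genes up to a mean of 1000 only, the inclusion of *armi* and the settings for the count of members without overlap were chosen after seeing the data. With 2 libraries per genotype and under 300 reads for 6 members in each library, changes of the size seen in *vret* could not be told from the spread.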

Other observations

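Other genes of the steps around Zucchini can be set beside it. *Nbr*, an exonuclease that trims piRNA 3′ ends, had 282.5 and 120.3 normalized reads in controls a and b and 179.8 and 298.5 in mutants a and b. *Gasz*, a mitochondrial anchor of the pathway, had 114.8 and 70.5 in controls and 85.9 and 108.7 in mutants. *mino*, a mitochondrial acyltransferase needed for primary piRNAs, had 523.3 and 371.8 in controls and 390.6 and 483.8 in mutants. *daed*, listed as *CG10880*, which encodes the partner of Gasz in that anchor, had 527.4 and 465.3 in controls and 471.2 and 588.0 in mutants. In each of these 4 genes control a exceeded control b and mutant b exceeded mutant a. That order was common. It was found in 14 of the 30 other pathway genes tested, in 3 of the 8 members (*zuc*, *papi* and *vret*) and in 36.7% of all genes tested. The 4 genes were chosen after their values were seen, and none passed the threshold between genotypes (limma, adjusted p from 0.986 to 0.994).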
